A study of Rattus norvegicus with 9 samples.

Results

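Cardiosphere-derived cells of the rat were kept for 3 days on an ultralow attachment (ULA) substrate, and their transcriptome was compared with that of such cells kept as long on polystyrene (PS). The comparison covers 3 ULA libraries and 3 PS libraries of the 9 in the series, and 12513 genes of the 19919 listed. A gene was tested if it had at least 1 FPKM (fragments divided by the length of the gene and by the library total) in at least 3 of the 9 libraries. Cardiosphere-derived cells (CDCs) are stromal progenitor-like cells that grow out of heart explants, and were taken here from the septum of the left ventricle of wild-type Sprague Dawley rats 4 weeks old. Both groups were seeded at the same density in IMDM with 10% FBS, and a further group of 3 libraries, on the cellulose-based liquid crystal OPC, is used only as a reference point. Each group has 3 biological replicates. The sources do not say whether each is a separate animal, so a p-value here sets a difference against the spread between cultures only. The comparison is named for a polystyrene monolayer, but the study's own description has the cells on PS also gather into spherical aggregates, with supporting cells still attached around their base. Aggregates on ULA arose without attachment and varied in outline. The PS group therefore stands for attached culture with aggregates, not for a flat layer alone. By the study's account, aggregates were much sparser on PS than on ULA, and larger on average after 3 days. The study's methods do not say whether RNA came from whole cultures or from collected aggregates. It was the RNA of many cells together, so fewer cells of a type cannot be told apart from less RNA per cell.

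Cells attached to a stiff surface such as polystyrene spread, assemble stress fibres and focal adhesions, and keep transcription systems active that read tension in the cytoskeleton. Serum response factor (SRF) works with MRTF coactivators, which follow the pool of free actin, and the TEAD factors work with YAP and TAZ, which leave the nucleus when cells round up. An ultralow attachment surface carries a hydrogel coating that proteins and cells do not stick to, so that cells have only each other and the matrix they secrete to hold on to. Inside an aggregate, oxygen, nutrients and lipoproteins arrive by diffusion, and the hypoxia-inducible factors (HIF), the sterol-regulated factor SREBP2 and the stress sensors of the endoplasmic reticulum (ER) respond to their supply in most mammalian cells.

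The libraries of a group were close to each other and far from the other group. Over all 9 libraries, OPC included, the first principal component held 69.3% of the variance of the genes tested and the second held 18.6%. The first set the PS libraries (-58.54 to -57.6) apart from both the ULA libraries (38.19 to 38.73) and the OPC libraries (14.67 to 22.81). The median coefficient of variation of a gene between libraries, among genes of at least 5 FPKM, was 4.29% in the PS group and 5.28% in the ULA group. The values of a library summed to 444736.4 to 460731.7, of which 9.21 to 12.6% came from the mitochondrial genome. How many reads stand behind a value is not known, and no counting error can be given.

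Between the ULA group and the PS group, 1978 genes (15.8% of those tested) were differentially expressed genes (DEGs), with a limma adjusted p no higher than 0.05 and a |log2FC| of at least 1. The log2 fold change (log2FC) is the difference of the group means of log2(FPKM + 1), ULA minus PS, which understates the change of low genes. Of the DEGs, 1053 were higher (8.42%) and 925 were lower (7.39%) in the ULA group. The smallest |log2FC| called was 1.0009 and the largest left out by the fold threshold was 0.9996. With no fold threshold, 8627 genes (68.9%) passed the adjusted p, 4807 higher (38.4%) and 3820 lower (30.5%). These shares are the background against which the gene lists below are read, and the genes tested had a median log2FC of 0.06. Small differences passed as well, and 46.0% of the genes past the adjusted p had a |log2FC| under 0.5. A gene seen in only one of the groups passes the filter through the group where it is high. Of the genes tested, 546 reached 1 FPKM in a ULA library and in no PS library, 259 of them DEGs that were higher, and 1372 of the 1978 DEGs had at least 1 FPKM in all 6 libraries. Large changes went both ways. A |log2FC| of at least 2 was seen in 269 higher and 273 lower genes, at least 3 in 104 and 69, at least 4 in 30 and 27, and at least 5 in 7 and 8. The DEGs higher in the ULA group held 5.32 to 5.43% of the FPKM of a PS library and 23.7 to 24.6% of that of a ULA library. The DEGs lower in the ULA group held 17.6 to 17.7% of a PS library and 3.95 to 3.97% of a ULA library.

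**Figure D1:**
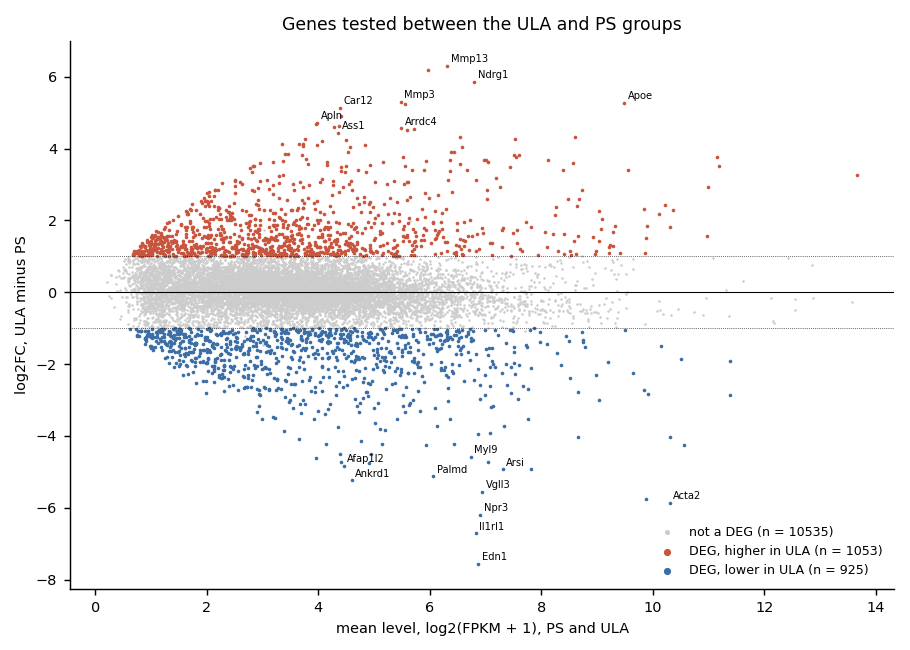
The log2FC between the ULA and PS groups (vertical axis, ULA minus PS) plotted against the mean level over both groups (horizontal axis, log2(FPKM + 1)), 1 point a gene tested. The 1053 DEGs higher in the ULA group are red, the 925 lower are blue, and names mark those of the 30 named DEGs with the largest |log2FC| that had room for a label.

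The 15 DEGs with the largest rises include the secreted protease genes Mmp13 and Mmp3, the lipid-handling genes Apoe, Angptl8 and G0s2, and genes of other roles. Mmp13, a collagenase gene on chromosome 8 of rn6 from 5522739 to 5533018, had 0.75999, 0.714 and 1.53 FPKM in the PS libraries and 175, 148 and 144 in the ULA libraries (log2FC 6.31 ± 0.15 (SE), limma adjusted p = 8.5e-10). The ULA libraries did not overlap the PS libraries, which was a condition for naming the 30 genes of this and the next paragraph. Prg4, which encodes the lubricating proteoglycan lubricin, had 1.52, 1.44 and 1.296 FPKM in the PS libraries and 98.9, 86.5 and 84.8 in the ULA libraries (log2FC 5.23 ± 0.08 (SE), limma adjusted p = 8.59e-11). The membrane-bound carbonic anhydrase gene Car12, on chromosome 8 of rn6 from 72405748 to 72460240, had 0.291, 0.0675 and 0.105 FPKM in the PS libraries and 35.2, 38.7 and 44.9 in the ULA libraries (log2FC 5.13 ± 0.14 (SE), limma adjusted p = 1.54e-09). It was thus below the level asked of a tested gene on PS and well above it on ULA. Apln, the gene of the vascular peptide apelin, had 0.421, 0.0566 and 0 FPKM in the PS libraries and 31.2, 25.3 and 31.6 in the ULA libraries. Tmem255b, a membrane protein gene, had 0.203, 0.173 and 0.134 FPKM in the PS libraries and 27.8, 27.2 and 32.03 in the ULA libraries. Cox4i2, the isoform of cytochrome c oxidase subunit 4 that is induced at low oxygen, had 0.582, 0.3302 and 1.03 FPKM in the PS libraries and 37.3, 36.9 and 42.2 in the ULA libraries (log2FC 4.62 ± 0.17 (SE), limma adjusted p = 8.89e-09). Its constitutive counterpart Cox4i1 went from 189 ± 5.55 in the PS group to 174 ± 5.901 FPKM in the ULA group (mean ± SD, n = 3, as in all values given so). Ptges, which makes prostaglandin E2 in inflamed tissue, had 0.435, 0.185 and 1.08 FPKM in the PS libraries and 37.4, 35.1 and 36.3 in the ULA libraries. The remaining rises among the 15 were in Angptl8, Ndrg1, Mmp3 and Apoe, in Arrdc4, an arrestin family gene that limits glucose uptake (log2FC 4.57), in G0s2, an inhibitor of lipolysis (4.55), in Penk, the enkephalin precursor gene (4.52), and in the arginine synthesis gene Ass1 (4.44).

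The 15 DEGs with the largest falls include the contractile genes Acta2, Tagln and Myl9, and genes of other roles. Edn1, which encodes the vasoconstrictor endothelin 1, had 250.2, 223 and 221 FPKM in the PS libraries and 0.395, 0.0565 and 0.275 in the ULA libraries (log2FC -7.55 ± 0.26 (SE), limma adjusted p = 7.77e-09). Vgll3, a cofactor of the TEAD factors on chromosome 11 of rn6 from 3119885 to 3164751, had 245, 236 and 238 FPKM in the PS libraries and 3.61, 4.32 and 4.46 in the ULA libraries (log2FC -5.55 ± 0.16 (SE), limma adjusted p = 2.55e-09). The PS and ULA libraries of these genes were separated by more than an order of magnitude. Ankrd1, a cardiac ankyrin repeat protein gene that serves as a readout of YAP activity, had 44.9, 46.02 and 47.4 FPKM in the PS libraries and 0.483, 0.177 and 0.1298 in the ULA libraries (log2FC -5.23 ± 0.18 (SE), limma adjusted p = 7.67e-09). F3, tissue factor, which starts blood coagulation, had 433, 436 and 439 FPKM in the PS libraries and 14.2, 12.97 and 13.2 in the ULA libraries (log2FC -4.92 ± 0.12 (SE), limma adjusted p = 8.97e-10). Myl9, the regulatory light chain of smooth muscle myosin, had 199.5, 206 and 203 FPKM in the PS libraries and 6.36, 8.67 and 7.63 in the ULA libraries (log2FC -4.58 ± 0.13 (SE), limma adjusted p = 2.08e-09). Gjb2, the gap junction gene of connexin 26, had 27.6, 29.6 and 29.7 FPKM in the PS libraries and 0.253, 0.162 and 0.253 in the ULA libraries, so a gene well seen on PS was near 0 on ULA. Esm1, a proteoglycan gene of activated endothelium, fell from 56.9 ± 0.225 to 1.17 ± 0.341 FPKM. The other falls were in Il1rl1, Npr3, Acta2 and Tagln, in Palmd (log2FC -5.12), the sulfatase gene Arsi (-4.92), the actin filament associated gene Afap1l2 (-4.83) and the fibronectin domain gene Fndc1 (-4.73).

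**Figure D2:**
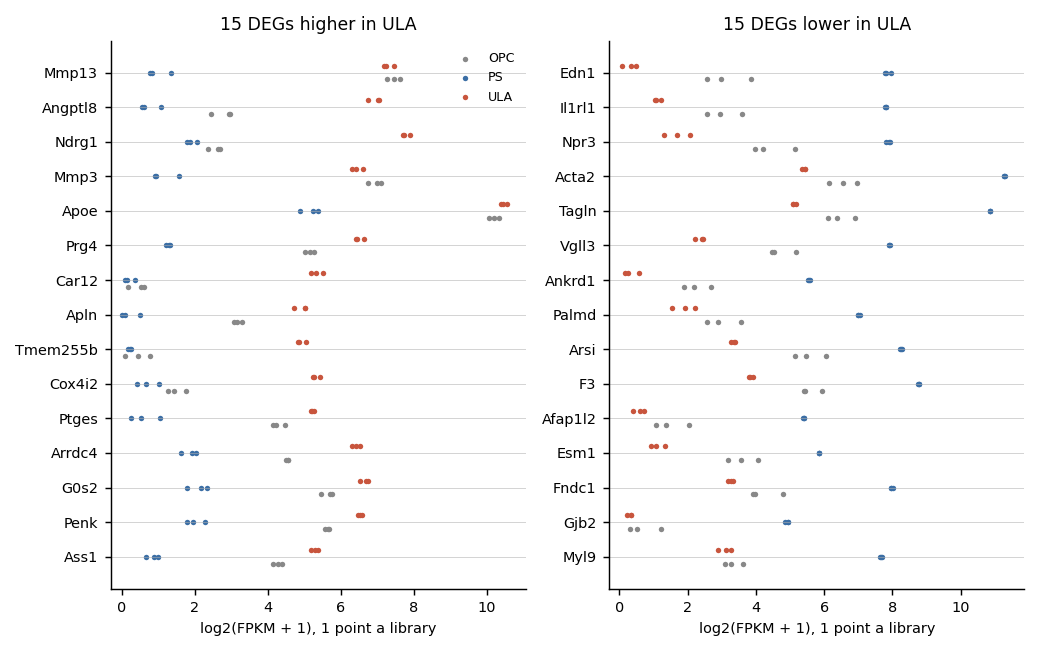
The level of the 30 DEGs with the largest |log2FC| in each library (horizontal axis, log2(FPKM + 1), 1 point a library), with the 3 PS libraries in blue, the 3 ULA libraries in red and the 3 OPC libraries in grey. The OPC libraries lie near the ULA libraries for genes such as Mmp13 and Myl9 and near the PS libraries for Car12 and Tmem255b.

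Ranked by FPKM rather than by fold, the 8 largest rises were in Mgp, Lcn2, Spp1, Postn, Mmp2, Lbp, P4hb and Apoe, and the 8 largest falls in Thbs1, Actb, Ctgf, Acta2, Nov, Tagln, Tmsb4x and S100a11. Mgp, which encodes the calcification inhibitor matrix Gla protein, had 2389, 2395 and 2511 FPKM in the PS libraries and 24901, 22636 and 22948 in the ULA libraries and was the highest gene of each ULA library (log2FC 3.27 ± 0.06 (SE), limma adjusted p = 1.45e-10). In the PS libraries the highest gene was Mt-co1, of the mitochondrial genome. Spp1, the gene of osteopontin, had 311, 301 and 321 FPKM in the PS libraries and 4551, 4042 and 4089.7 in the ULA libraries (log2FC 3.76 ± 0.06 (SE), limma adjusted p = 1.52e-10). Lcn2, the iron-scavenging lipocalin, had 379, 363 and 376 FPKM in the PS libraries and 4579.7, 4141 and 4212 in the ULA libraries (log2FC 3.53 ± 0.05 (SE), limma adjusted p = 4.47e-11). Each of these genes rose by about an order of magnitude. Their libraries did not overlap, which held for 1966 of the 1978 DEGs and for 9062 of the 12513 genes tested. Lbp, which binds bacterial lipopolysaccharide, rose from 376 ± 2.46 to 2014 ± 103 FPKM. Among the falls, Thbs1, the gene of the matricellular protein thrombospondin 1, had 4620.3, 4748 and 4773 FPKM in the PS libraries and 641, 649 and 669 in the ULA libraries (log2FC -2.85 ± 0.09 (SE), limma adjusted p = 2.84e-09) and was the largest in FPKM. Ctgf, a matricellular target of YAP also named Ccn2, had 2846, 2906 and 2886 FPKM in the PS libraries and 146, 158 and 150.1 in the ULA libraries (log2FC -4.24 ± 0.11 (SE), limma adjusted p = 1.54e-09). Its family member Nov fell from 2397 ± 19.1 to 146 ± 8.35 FPKM. Tmsb4x, the main protein that holds actin monomers, fell from 2269 ± 20.3 to 621 ± 17.8 FPKM, and S100a11, a calcium-binding protein gene, fell from 1697 ± 114 to 236 ± 1.21 FPKM.

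**Figure D3:**
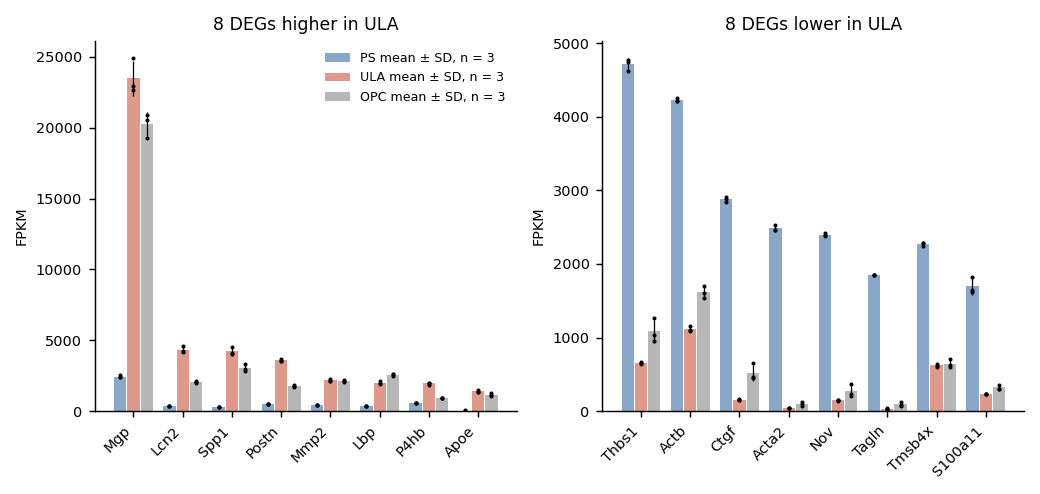
The mean level in FPKM (bars) with SD (error bars, n = 3) and the 3 libraries of each group (points), for the 8 DEGs with the largest rise in FPKM (left) and the 8 with the largest fall (right). Mgp stands above the other genes at 22636 to 24901 FPKM in the ULA libraries, and Thbs1 falls from the highest level among the 8 on PS.

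All tested genes of the contractile cytoskeleton that SRF is known to drive were lower in the ULA group. Of 31 genes tested on this list, 31 were lower at the adjusted p and 26 were DEGs, with a median log2FC of -1.92. The members together held 17188 to 17320.4 FPKM in the PS libraries and 4200.2 to 4425 in the ULA libraries. Tpm1, the tropomyosin that stabilises actin filaments, had 212, 211 and 209.9 FPKM in the PS libraries and 25.4, 27.5 and 25.1 in the ULA libraries (log2FC -2.97 ± 0.07 (SE), limma adjusted p = 6.97e-10). Actb, cytoplasmic beta actin and often used as a reference gene, had 4219, 4212 and 4251 FPKM in the PS libraries and 1150.1, 1105 and 1085 in the ULA libraries (log2FC -1.92 ± 0.04 (SE), limma adjusted p = 6.1e-10). The vinculin gene Vcl fell by 2.30 and the filamin A gene Flna by 2.40 on the log2 scale. The transcription factor gene Srf itself fell from 21.7 ± 1.28 to 9.35 ± 0.463 FPKM and its coactivator gene Mkl1 (MRTF-A) from 21.6 ± 0.235 to 8.95 ± 0.832 FPKM. The smallest fall of the list was in Synpo2, an actin-bundling gene, from 3.45 ± 0.192 to 2.89 ± 0.264 FPKM (limma adjusted p = 0.0494). That call was lost with several alternatives, such as the fit of only the PS and ULA libraries (limma adjusted p = 0.0737).

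Most targets of YAP and TEAD were lower too. Of 25 targets and partners tested, 19 were lower and 5 higher, 17 and 2 of them DEGs, with a median log2FC of -1.67. Cyr61, a secreted matricellular protein gene also named Ccn1, had 764, 759.9 and 763 FPKM in the PS libraries and 48.99, 42.96 and 46.5 in the ULA libraries (log2FC -4.02 ± 0.05 (SE), limma adjusted p = 4.47e-11). Lats2, a kinase that YAP induces and that in turn restrains YAP, had 67.7, 67.3 and 68.7 FPKM in the PS libraries and 14.9, 14.5 and 15.9 in the ULA libraries (log2FC -2.10 ± 0.05 (SE), limma adjusted p = 8.1e-10). Axl, a receptor tyrosine kinase gene, fell from 91.3 ± 1.76 to 33.01 ± 0.825 FPKM, and Tgfb2, a TGF-β ligand gene, fell from 337 ± 5.43 to 42.1 ± 1.45 FPKM. Yap1 itself had 49.6 ± 5.12 FPKM in the PS libraries and 42.9 ± 1.02 in the ULA libraries (log2FC -0.20, limma adjusted p = 0.0261), and lost the call when PS replicate 2 was left out (limma adjusted p = 0.0966). Its partner gene Wwtr1, which encodes TAZ, did not pass the test (44.4 ± 0.471 and 46.1 ± 1.13 FPKM, log2FC 0.05, limma adjusted p = 0.194). Against the list, Igfbp3, an insulin-like growth factor binding protein gene that HIF also induces, had 20.6, 17.995 and 17.8 FPKM in the PS libraries and 246, 229 and 254 in the ULA libraries (log2FC 3.62 ± 0.06 (SE), limma adjusted p = 1.44e-10). Nt5e, the ecto-nucleotidase CD73, had 9.51, 8.86 and 9.35 FPKM in the PS libraries and 83.6, 86.9 and 83.4 in the ULA libraries (log2FC 3.06 ± 0.04 (SE), limma adjusted p = 4.47e-11). The third, Gadd45a, a DNA damage and stress gene, rose from 98.4 ± 2.87 to 161 ± 4.03 FPKM.

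The binding motifs of these factors are shown where the promoter holds them, for the member with the largest |log2FC| among those with a match in the 250 bases before the RefSeq start site. Windows of 80 bases are in GRCr8, read 5′ to 3′ on the strand of the gene, with the motif in capitals. For SRF the motif is the CArG box, searched on both strands. It was found in 5 of 24 list members with a promoter, and in 1.5% of all 27457 promoters. Fhl2, a LIM protein gene of the actin cytoskeleton, is shown from chr9:52954591-52954670 (minus strand), and fell from 94.7 ± 1.32 to 13.4 ± 1.81 FPKM. For TEAD the motif is GGAATG on either strand, found in 5 of 15 list members and 11.76% of all promoters. Amotl2, a gene of the angiomotin family that binds YAP, is shown from chr8:112182513-112182592 (plus strand), and fell from 164 ± 0.884 to 7.83 ± 0.742 FPKM. In Amotl2 the match is on the opposite strand and reads CATTCC. A match is a description of the letters and not a binding site. Both lists were compiled from known targets of these factors, so their motif shares are not independent of how they were chosen.
Fhl2: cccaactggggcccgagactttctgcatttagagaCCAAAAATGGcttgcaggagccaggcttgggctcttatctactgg
Amotl2: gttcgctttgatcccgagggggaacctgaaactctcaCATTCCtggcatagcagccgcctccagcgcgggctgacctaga

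Genes of cell adhesion to the matrix were mostly lower, while a few integrin chains rose. Of 30 integrin and focal adhesion genes tested, 23 were lower and 6 higher (11 and 3 of them DEGs). Itga11, a chain of the collagen receptor of fibroblasts, had 129, 125 and 134 FPKM in the PS libraries and 8.86, 8.58 and 9.37 in the ULA libraries (log2FC -3.71 ± 0.07 (SE), limma adjusted p = 3.35e-10), and Itgb1, the chain most integrins share, fell from 621 ± 8.99 to 236 ± 7.91 FPKM. The actin crosslinker genes Actn1 and Actn4 fell by 2.69 and 1.96 on the log2 scale, and Cav1, which shapes caveolae, fell from 304 ± 3.23 to 62.2 ± 0.7605 FPKM. The DEGs that rose encode chains of receptors for fibronectin, vitronectin or latent TGF-β. Itgb3 had 3.19, 2.87 and 3.73 FPKM in the PS libraries and 16.3, 16.9 and 14.6 in the ULA libraries (log2FC 1.99 ± 0.08 (SE), limma adjusted p = 1.96e-08), Itgb8 rose by 2.17 and Itga5 by 1.36 on the log2 scale.

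Junctions between cells also changed in both directions. Of 23 genes of cell-cell adhesion and gap junctions, 15 were lower and 8 higher. Of these, 4 and 2 were DEGs, against 7.39% lower and 8.42% higher over all genes tested. The cadherin gene Cdh3 had 7.21, 7.91 and 8.16 FPKM in the PS libraries and 0.717, 1.33 and 0.648 in the ULA libraries (log2FC -2.22 ± 0.14 (SE), limma adjusted p = 6.1e-07), and the adhesion molecule gene Alcam fell from 36.9 ± 0.375 to 9.08 ± 0.946 FPKM. Ctnnd1, p120 catenin, which stabilises cadherins, fell from 65.2 ± 0.556 to 45.3 ± 0.301 FPKM. Gja1, the gene of connexin 43 and the main gap junction protein of the heart, had 114, 112 and 119 FPKM in the PS libraries and 238, 227 and 232 in the ULA libraries (log2FC 1.00 ± 0.03 (SE), limma adjusted p = 4.29e-09). The PS and ULA libraries of Gja1 did not overlap, as in 9062 of the 12513 genes tested, and its log2FC lay next to the fold threshold. Jam2, a junctional adhesion molecule gene, rose from 0.262 ± 0.103 to 2.73 ± 0.2099 FPKM, and Vcam1, an adhesion molecule for leukocytes, rose from 166 ± 1.86 to 241 ± 10.5 FPKM.

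Extracellular matrix genes changed in both directions. Of 21 collagen genes, 12 were lower and 7 higher, and of 39 matrix glycoprotein and crosslinking genes, 21 were lower and 16 higher. Col11a1, a minor chain of cartilage-type fibrils, had 397, 402 and 402 FPKM in the PS libraries and 33.6, 33.2 and 34.3 in the ULA libraries (log2FC -3.53 ± 0.09 (SE), limma adjusted p = 9.62e-10). Col8a1, a network collagen of vessel walls, fell from 526 ± 4.71 to 128 ± 2.84 FPKM, Col4a5, of basement membranes, from 49.2 ± 1.18 to 14.9 ± 0.1999 FPKM and Col14a1, which coats fibrils, from 156 ± 1.45 to 48.4 ± 2.51 FPKM. The main fibril collagens diverged. Col1a1 had 5879, 5808 and 5810.3 FPKM in the PS libraries and 3289, 3229.9 and 3439.6 in the ULA libraries (log2FC -0.81 ± 0.04 (SE), limma adjusted p = 1.03e-07), whereas Col3a1 had 1460.2, 1458 and 1471 FPKM in the PS libraries and 2975, 2744 and 2865 in the ULA libraries (log2FC 0.97 ± 0.04 (SE), limma adjusted p = 2.26e-08). Col1a2, the other chain of type I collagen, overlapped between the groups. It had 435, 934 and 521 FPKM in the PS libraries and 414, 398 and 655 in the ULA libraries. Col16a1 and Col5a3 rose from 19.4 ± 0.503 to 71.9 ± 2.65 and from 11.1 ± 0.2399 to 46.4 ± 1.94 FPKM.

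Among the matrix glycoproteins, the named falls were in elastic fibre and wound matrix genes and the named rises in a small proteoglycan, periostin and Mgp. Eln, the elastin gene, had 48.8, 47.2 and 45.03 FPKM in the PS libraries and 4.17, 3.4998 and 3.69 in the ULA libraries (log2FC -3.33 ± 0.06 (SE), limma adjusted p = 2.42e-10). Mfap5, a microfibril protein gene, fell from 125 ± 2.11 to 27.1 ± 0.195 FPKM and Fbln2, fibulin 2, from 521 ± 2.36 to 202 ± 6.45 FPKM. Tnc, tenascin C, which is laid down in wounds, fell from 164 ± 2.61 to 28.8 ± 0.266 FPKM. Dcn, the small proteoglycan decorin that binds collagen fibrils and TGF-β, had 9.12, 9.92 and 9.12 FPKM in the PS libraries and 109, 110.1 and 105 in the ULA libraries (log2FC 3.39 ± 0.04 (SE), limma adjusted p = 4.47e-11). Postn, periostin, a matricellular protein of healing myocardium, had 467, 477 and 472 FPKM in the PS libraries and 3682, 3534 and 3549 in the ULA libraries (log2FC 2.92 ± 0.04 (SE), limma adjusted p = 4.67e-11). The glycoprotein list as a whole summed to 26057 to 26279.7 FPKM in the PS libraries and 51861 to 55450.2 in the ULA libraries, of which Mgp made up a large part.

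A mixed list of matrix proteases and their inhibitors leaned towards higher levels. Of 29 genes, 19 were higher and 10 lower, 15 and 7 of them DEGs, with a median log2FC of 1.03. The inhibitor genes Timp1, Timp2, Serpine2 and Serpinb2 were among the higher and Timp3 among the lower. The proteases were not counted alone. The gelatinase gene Mmp2 had 451, 433 and 442 FPKM in the PS libraries and 2287, 2094 and 2150.03 in the ULA libraries (log2FC 2.30 ± 0.04 (SE), limma adjusted p = 2.42e-10). Timp1, an inhibitor of these enzymes, rose from 278 ± 1.98 to 1007 ± 38.7 FPKM, and Ctsk, the collagen-cutting cathepsin K of bone, rose from 69.9 ± 3.05 to 244 ± 4.62 FPKM. Adam12, Adamts2 and Mmp16, which are bound to the membrane or process procollagen, fell by 1.72, 0.91 and 1.56 on the log2 scale.

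Mmp13 and Mmp3, the matrix protease genes with the largest rises, each carry the AP-1 motif TGANTCA close to the start site. The motif, searched on both strands, was found in 6 of 21 members of the protease list and in 6.36% of all promoters, again in the 250 bases before the start. Mmp13 is shown from chr8:12782726-12782805 (plus strand) and Mmp3 from chr8:12925173-12925252 (plus strand) in GRCr8, with the motif in capitals. Mmp3 had 0.918, 0.884 and 1.94 FPKM in the PS libraries and 95.8, 83.5 and 77.7 in the ULA libraries. Of the genes that encode AP-1 subunits, Fosl2 rose from 42.5 ± 2.65 to 66.9 ± 3.19 FPKM and Junb from 281 ± 1.23 to 376 ± 65.3 FPKM, and Jund fell from 142 ± 8.29 to 97.8 ± 33.8 FPKM. The call of Jund was lost when any PS library was left out, with an adjusted p of 0.0531 to 0.0823 from limma. ULA replicate 2, which had 59.2 FPKM of Jund against 122 and 112 in the other ULA libraries, moved its log2FC from -0.60 to -0.28 when left out. Fos, Fosb, Jun and Fosl1 did not pass (limma adjusted p = 0.24, 0.0552, 0.799 and 0.362).
Mmp13: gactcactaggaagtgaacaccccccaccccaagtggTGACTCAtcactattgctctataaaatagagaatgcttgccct
Mmp3: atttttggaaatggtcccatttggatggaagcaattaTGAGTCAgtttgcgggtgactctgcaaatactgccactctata

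Every tested gene of glycolysis and of glucose or lactate transport was higher in the ULA group. Of 20 genes tested, 20 were higher and 18 were DEGs, with a median log2FC of 1.67 against 0.06 over all genes. Slc2a1, the glucose transporter GLUT1, had 28.7, 27.6 and 25.8 FPKM in the PS libraries and 299, 317 and 334 in the ULA libraries (log2FC 3.48 ± 0.06 (SE), limma adjusted p = 1.52e-10). Slc16a3, which exports lactate, had 4.13, 3.95 and 4.04 FPKM in the PS libraries and 37.1, 37.7 and 38.1 in the ULA libraries (log2FC 2.94 ± 0.05 (SE), limma adjusted p = 1.44e-10), and Slc16a1, a transporter of lactate and pyruvate, rose from 22.4 ± 0.502 to 111 ± 6.26 FPKM. The enzyme genes Pgk1 and Hk2, phosphoglycerate kinase and a hexokinase, rose from 181 ± 2.498 to 865 ± 51.8 and from 8.26 ± 0.682 to 50.001 ± 4.51 FPKM. Pfkl and Ldha, a phosphofructokinase chain and lactate dehydrogenase A, rose from 32.995 ± 0.427 to 106 ± 3.04 and from 247 ± 6.34 to 722 ± 25.04 FPKM. The smallest rise was in Pfkm, the muscle phosphofructokinase, from 14.6 ± 0.369 to 17.96 ± 0.234 FPKM.

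Most known targets of hypoxia and HIF were higher too. Of 46 tested, 37 were higher, 7 were lower and 2 did not pass, and 32 and 3 were DEGs in these directions, with a median log2FC of 1.83. Bnip3, a receptor for mitophagy, had 38.8, 39.5 and 39.2 FPKM in the PS libraries and 486, 516 and 549 in the ULA libraries (log2FC 3.69 ± 0.05 (SE), limma adjusted p = 4.47e-11). Egln3, a prolyl hydroxylase that marks HIF for decay and is itself induced by it, had 10.5, 9.28 and 9.36 FPKM in the PS libraries and 163, 146 and 172 in the ULA libraries (log2FC 3.91 ± 0.06 (SE), limma adjusted p = 1.18e-10). Higd1a, a mitochondrial protein gene, rose from 16.6 ± 0.579 to 184 ± 8.25 FPKM, and Fam162a from 15.5 ± 0.777 to 144 ± 6.52 FPKM. Vegfa, the vascular growth factor gene, had 116, 106 and 112 FPKM in the PS libraries and 474, 491 and 517 in the ULA libraries (log2FC 2.14 ± 0.04 (SE), limma adjusted p = 3.78e-10). Among the genes that fell were Anln, a cytokinesis gene (-3.25 in log2FC), Plod2, a collagen lysyl hydroxylase gene (-0.80), Adm (-1.73), Pgf (-0.75), Lox (-0.56) and Loxl2 (-0.12), the last of which was lost with several alternatives (limma adjusted p = 0.126 without PS replicate 3). Lox and Loxl2 crosslink the matrix, and Anln is a gene of dividing cells.

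The core of the hypoxia response element, ACGTG on either strand, was found in 20 of 36 hypoxia list members with a promoter and in 8 of 18 glycolysis members. It was found in 16.95% of all promoters. The members with the largest |log2FC| among those with a match were Hilpda, which coats lipid droplets, and Angptl4, an inhibitor of lipoprotein lipase. Hilpda rose from 17.4 ± 2.21 to 350.5 ± 19.3 FPKM (log2FC 4.26, limma adjusted p = 7.1e-10) and is shown from chr4:58836378-58836457 (plus strand) in GRCr8. Angptl4 rose from 2.18 ± 0.454 to 53.3 ± 1.91 FPKM (log2FC 4.11, limma adjusted p = 6.37e-10) and is shown from chr7:15258852-15258931 (minus strand), with the match on the opposite strand, where it reads CACGT. The lists were compiled from targets of HIF, so a high share of this motif is not independent of how they were chosen.
Hilpda: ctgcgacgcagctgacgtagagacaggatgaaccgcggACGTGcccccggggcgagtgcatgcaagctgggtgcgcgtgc
Angptl4: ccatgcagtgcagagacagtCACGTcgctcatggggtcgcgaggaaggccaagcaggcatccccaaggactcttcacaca

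Mitochondrial genes moved less, and more of them fell than rose. Of 25 genes of pyruvate oxidation and the tricarboxylic acid cycle, 14 were lower and 5 higher and none was a DEG, with a median log2FC of -0.17. Mdh2, mitochondrial malate dehydrogenase, had 109, 105 and 112 FPKM in the PS libraries and 59.9, 61.3 and 53.8 in the ULA libraries (log2FC -0.89 ± 0.05 (SE), limma adjusted p = 2.29e-07). Dlat (a subunit of pyruvate dehydrogenase) and Cs (citrate synthase) fell by 0.56 and 0.43 on the log2 scale, and Idh2 fell by 0.42. The rises were in Sdhd (log2FC 0.51), Mpc2 (0.43), Fh (0.29), Sdha (0.22) and Sucla2 (0.22). Of 59 nuclear genes of the respiratory complexes, 31 were lower, 8 higher and 20 did not pass, and only Cox4i2 was a DEG. The number higher was 4 with median-ratio rescaling and 5 without ULA replicate 2. Cox6a1, of complex IV, fell from 269 ± 6.804 to 151 ± 2.97 FPKM, and Uqcrq, of complex III, fell from 54.5 ± 0.843 to 32.7 ± 1.36 FPKM. Of 13 protein genes of the mitochondrial genome, 11 were lower and none higher, among them Mt-co2 (7291, 6878 and 6916 FPKM in the PS libraries and 5156, 5135 and 4562 in the ULA libraries). The number lower was 6 with no filter on low values and 8 without ULA replicate 3.

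Genes of sterol synthesis were lower in the ULA group. Of 24 genes of sterol synthesis and uptake, 22 were lower and none higher, and 18 were DEGs, with a median log2FC of -1.64. Srebf2, the gene of the factor SREBP2 that drives the pathway, had 28.9, 28.4 and 29.8 FPKM in the PS libraries and 9.25, 10.1 and 9.12 in the ULA libraries (log2FC -1.52 ± 0.05 (SE), limma adjusted p = 7.39e-09). Fdps, which makes farnesyl diphosphate, fell from 71.9 ± 1.302 to 15.7 ± 0.422 FPKM. Sqle, squalene epoxidase, fell less, from 61.1 ± 1.35 to 32.5 ± 1.19 FPKM. Insig1, which holds SREBP in the ER, did not pass the test (66.8 ± 1.05 and 56.6 ± 8.73 FPKM, log2FC -0.25, limma adjusted p = 0.0608), but did pass with median-ratio rescaling of the libraries (limma adjusted p = 0.0177). The sterol response element TCACNCCAC was found in 0 of 17 list members with a promoter and in 0.98% of all promoters, which says only that these letters are not in these windows.

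Most genes of fatty acid synthesis were lower too, and most of a mixed list of lipid handling genes were higher. Of 16 genes of fatty acid synthesis and desaturation, 11 were lower and 4 higher. Scd, a desaturase, had 18.1, 19.4 and 19.5 FPKM in the PS libraries and 1.68, 1.32 and 1.45 in the ULA libraries (log2FC -3.01 ± 0.07 (SE), limma adjusted p = 7.36e-10). The desaturase genes Fads1 and Fads2 fell from 61.7 ± 0.4804 to 15.3 ± 0.894 and from 85.7 ± 2.96 to 17.4 ± 0.835 FPKM, and Fasn, fatty acid synthase, from 44.02 ± 0.6302 to 17.2 ± 0.299 FPKM. Lpin1, a phosphatidate phosphatase gene of triglyceride synthesis, had 2.25, 1.69 and 1.44 FPKM in the PS libraries and 9.8998, 9.73 and 9.69 in the ULA libraries (log2FC 1.96 ± 0.10 (SE), limma adjusted p = 1.3e-07). Of 29 genes of lipid handling, targets of the oxysterol receptor LXR among them, 20 were higher and 5 lower. Apoe, which carries lipids out of cells, had 36.97, 28.4 and 40.8 FPKM in the PS libraries and 1484, 1333 and 1371 in the ULA libraries (log2FC 5.28 ± 0.12 (SE), limma adjusted p = 5.88e-10). Abca1, the cholesterol exporter that LXR induces, had 4.06, 4.62 and 4.45 FPKM in the PS libraries and 23.1, 20.97 and 20.5 in the ULA libraries (log2FC 2.07 ± 0.07 (SE), limma adjusted p = 6.16e-09). Cpt1a, which admits fatty acids to mitochondria, rose from 9.57 ± 0.607 to 36.7 ± 2.07 FPKM, and Plin2, a coat protein of lipid droplets, from 26.9 ± 0.237 to 104 ± 1.37 FPKM. The falls were in Scarb1, Vldlr and Fabp5, which take up or bind lipids (log2FC -1.10, -0.82 and -1.78), and in Lpcat3 and Ppard.

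**Figure D4:**
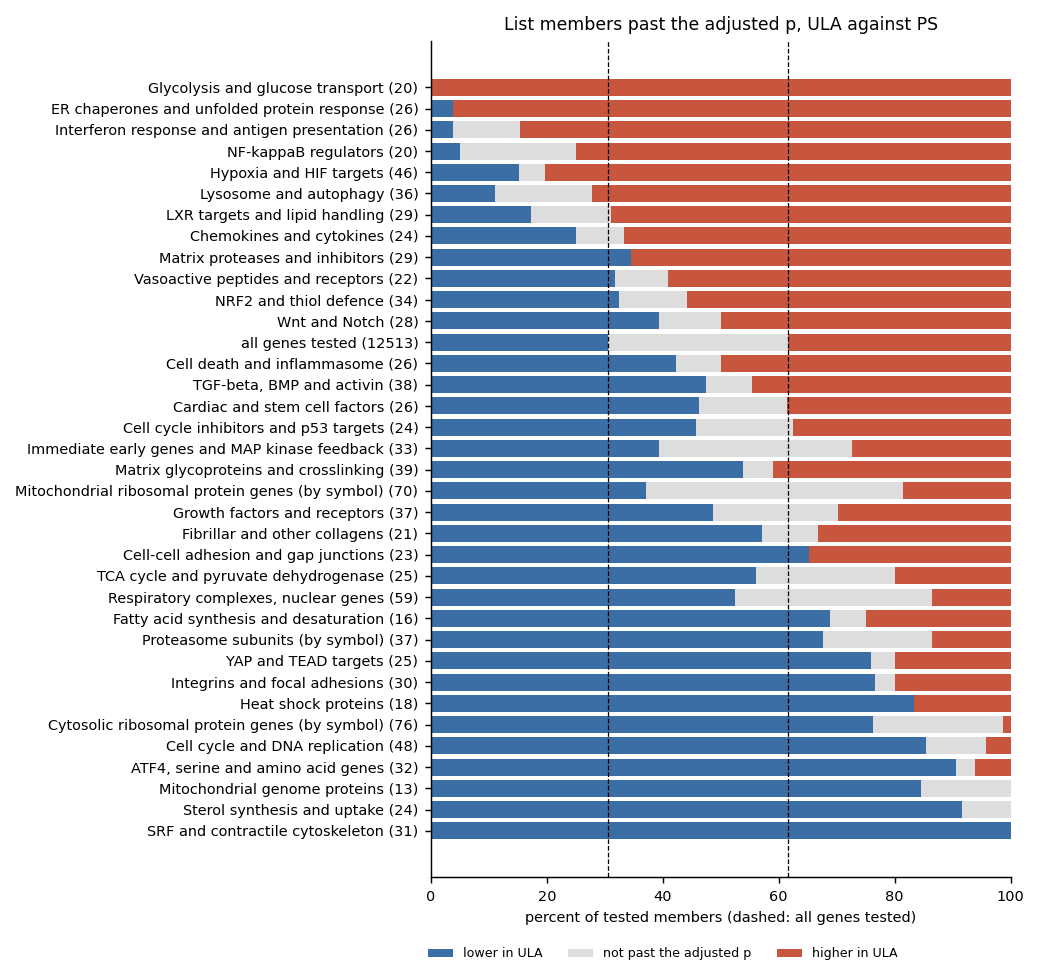
The percent of tested members of each gene list (number tested in brackets) that were lower in ULA (blue), did not pass the adjusted p (grey) or were higher in ULA (red). The dashed lines mark the shares over all genes tested, 30.5% lower and 38.4% higher, and the contractile and glycolysis lists lie at the ends, with 31 of 31 lower and 20 of 20 higher.

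Most ER chaperone genes were higher in the ULA group, and most heat shock protein genes were lower. Of 26 genes of ER chaperones and the unfolded protein response, 25 were higher and 1 was lower, and 10 of the 25 were DEGs, with a median log2FC of 0.75. Pdia4, a disulfide isomerase gene, had 122, 127 and 127 FPKM in the PS libraries and 621, 686 and 705 in the ULA libraries (log2FC 2.41 ± 0.05 (SE), limma adjusted p = 4.03e-10). Hsp90b1, the ER member of the HSP90 family, had 302, 302 and 305 FPKM in the PS libraries and 1349.5, 1651 and 1565 in the ULA libraries (log2FC 2.32 ± 0.07 (SE), limma adjusted p = 2.55e-09). Hspa5, the ER chaperone BiP, had 413, 415 and 409.9 FPKM in the PS libraries and 1301, 1576 and 1580.03 in the ULA libraries (log2FC 1.84 ± 0.07 (SE), limma adjusted p = 1.06e-08). P4hb, a disulfide isomerase that is also a subunit of the collagen prolyl hydroxylase, and Dnajb9, a cochaperone gene, rose from 558 ± 2.25 to 1962 ± 75.9 and from 19.3 ± 0.393 to 75.8 ± 5.803 FPKM. The exception was Ppp1r15a, which restarts translation after stress (-0.28 in log2FC). Of 18 genes of the heat shock protein families, 15 were lower and 3 higher. Cryab, alpha B crystallin, had 299, 296 and 298 FPKM in the PS libraries and 19.3, 27.4 and 19.3 in the ULA libraries (log2FC -3.71 ± 0.15 (SE), limma adjusted p = 2.02e-08), and Dnajb4, Hsph1 and Hspa8 fell by 2.08, 1.29 and 0.51 on the log2 scale. The rises were in Bag3 (log2FC 0.19), Hspb8 (0.25) and Hsp90ab1 (0.11), the last of which is lost with another scaling (limma adjusted p = 0.182, against 0.0124).

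The ER stress element, CCAAT and CCACG with 9 bases between them on either strand, was found in 7 of 21 members of the ER list and in 0.08% of all promoters. Creld2, a calcium-binding ER protein gene, had the largest rise among these, from 22.6 ± 2.19 to 204 ± 25.6 FPKM (log2FC 3.11, limma adjusted p = 2.6e-09), and is shown from chr7:121789208-121789287 (plus strand). Hsp90b1 holds 2 copies, and the window from chr7:23012317-23012396 (minus strand) shows that nearer the start site. In both windows the element lies on the opposite strand, so the capitals read CGTGG and ATTGG. The list was compiled from known targets of this response, and the share is a description of it.
Creld2: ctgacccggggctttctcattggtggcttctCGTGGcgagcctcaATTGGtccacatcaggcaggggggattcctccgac
Hsp90b1: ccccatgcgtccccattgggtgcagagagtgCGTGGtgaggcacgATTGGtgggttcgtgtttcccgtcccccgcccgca

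Genes of the ATF4 branch of the stress response went the other way. Of 32 genes for serine and one-carbon synthesis, amino acid transport and tRNA charging, 29 were lower and 2 higher, 20 and 2 of them DEGs, with a median log2FC of -1.22. Phgdh, the first enzyme of serine synthesis, had 48.8, 47.3 and 51.7 FPKM in the PS libraries and 8.297, 7.44 and 7.65 in the ULA libraries (log2FC -2.51 ± 0.06 (SE), limma adjusted p = 5.99e-10). Slc7a5, a transporter of large neutral amino acids, had 81.3, 80.7 and 80.7 FPKM in the PS libraries and 11.2, 13.3 and 12.05 in the ULA libraries (log2FC -2.64 ± 0.07 (SE), limma adjusted p = 1.54e-09). Asns, asparagine synthetase, fell from 81.6 ± 0.4898 to 26.4 ± 1.36 FPKM, Aars, alanyl-tRNA synthetase, from 106 ± 1.296 to 50.5 ± 0.107 FPKM, and Atf4 itself from 236 ± 2.83 to 189.8 ± 21.4 FPKM. Ddit3, the stress factor CHOP, rose from 34.03 ± 4.15 to 104 ± 11.3 FPKM, and Mthfd1l, a mitochondrial folate enzyme gene, from 8.27 ± 0.2501 to 26.9 ± 2.29 FPKM. The core TGATGNAA of the element that ATF4 binds was found on either strand in 6 of 25 list members and in 3.27% of all promoters. Chac1, which degrades glutathione, had the largest fall among these, from 36.4 ± 0.788 to 5.05 ± 1.22 FPKM. It is shown from chr3:126795928-126796007 (plus strand), with the match on the opposite strand. The list was compiled from genes of the ATF4 branch, so its motif share is not independent of that choice.
Chac1: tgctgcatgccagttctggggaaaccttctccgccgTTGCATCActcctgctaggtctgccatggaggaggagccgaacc

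Genes of ribosomes and proteasomes changed by small amounts. Of 76 cytosolic ribosomal protein genes, 58 were lower, 1 higher and 17 did not pass, with a median log2FC of -0.48. Many have processed copies that share reads. Of 70 mitochondrial ribosomal protein genes, 26 were lower, 13 higher and 31 did not pass, a lower share near that of all genes. Of 37 proteasome subunit genes, 25 were lower and 5 higher. None of the proteasome or mitochondrial ribosomal genes was a DEG.

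Genes of DNA replication and mitosis were lower in the ULA group. Of 48 tested, 41 were lower and 2 higher, and 32 of the 41 were DEGs, with a median log2FC of -1.56. Mki67, the proliferation marker, had 12.6, 12.5 and 12.1 FPKM in the PS libraries and 2.13, 2.07 and 2.28 in the ULA libraries (log2FC -2.08 ± 0.07 (SE), limma adjusted p = 6.72e-09). Ccnd1, cyclin D1, had 99.2, 104 and 104 FPKM in the PS libraries and 34.1, 35.6 and 33.8 in the ULA libraries (log2FC -1.54 ± 0.06 (SE), limma adjusted p = 2.02e-08). The mitotic genes Cdc20 and Ube2c, of the complex that ends mitosis, fell from 16.9 ± 1.001 to 2.27 ± 0.0825 and from 7.28 ± 0.5402 to 0.598 ± 0.0334 FPKM. The replication gene Gins2 and the factor E2f1 rose by 0.77 and 0.45 on the log2 scale. Pcna, the sliding clamp of replication, did not pass the test (50.5 ± 4.09 and 47.5 ± 3.796 FPKM, log2FC -0.09, limma adjusted p = 0.296). In bulk RNA these values do not tell how many cells were in cycle.

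Inhibitors of the cell cycle and targets of p53 were split, with 9 of 24 higher (37.5%) and 11 lower (45.8%). The higher share was near that of all genes tested, of which 38.4% were higher and 30.5% lower. Ccng2, an unconventional cyclin of quiescent cells, had 10.9, 11.6 and 11.4 FPKM in the PS libraries and 51.9, 49.7 and 59.6 in the ULA libraries (log2FC 2.15 ± 0.07 (SE), limma adjusted p = 3.09e-09). Btg1, an antiproliferative gene, rose from 97.8 ± 7.31 to 349 ± 30.5 FPKM, and Cdkn1b, p27, from 27.3 ± 0.496 to 56.1 ± 2.58 FPKM. Gadd45b and Gadd45g, stress-induced relatives of Gadd45a, fell from 52.8 ± 1.75 to 11.7 ± 0.423 and from 57.6 ± 4.07 to 12.1 ± 1.39 FPKM, and Sesn2, which restrains mTORC1, from 45.1 ± 1.17 to 19.5 ± 1.07 FPKM. Cdkn1a, p21 and a main target of p53, did not pass the test (111 ± 3.58 and 111 ± 4.77 FPKM, log2FC -0.00, limma adjusted p = 0.994). Among 26 genes of cell death and the inflammasome, 13 were higher and 11 lower. Bcl2l11 and Bmf, BH3-only genes known for death after loss of attachment or of growth factors, rose together. Bcl2l11 had 3.08, 3.08 and 2.99 FPKM in the PS libraries and 20.5, 19.7 and 19.04 in the ULA libraries (log2FC 2.36, limma adjusted p = 1.23e-09), and Bmf had 0.916, 1.14 and 1.17 FPKM in the PS libraries and 14.97, 14.1 and 13.4 in the ULA libraries (log2FC 2.87, limma adjusted p = 7.17e-09). The BH3-only gene Pmaip1 (NOXA) went down, with 88.7, 88.4 and 88.5 FPKM in the PS libraries and 9.72, 9.71 and 9.04 in the ULA libraries (log2FC -3.09 ± 0.06 (SE), limma adjusted p = 2.67e-10). Bcl2l1, which blocks apoptosis, fell from 20.1 ± 0.996 to 8.59 ± 0.549 FPKM, and Gsdmd, the pore-forming gasdermin D, from 18.9 ± 0.658 to 9.51 ± 0.276 FPKM. Casp1, the inflammasome caspase, rose from 1.597 ± 0.194 to 3.17 ± 0.464 FPKM (log2FC 0.68, limma adjusted p = 0.000283), and Bnip3l, a relative of Bnip3, from 32.5 ± 1.599 to 108 ± 4.16 FPKM.

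Inflammatory and interferon genes were mostly higher in the ULA group. Of 24 chemokine and cytokine genes, 16 were higher and 6 lower. Cxcl16, a chemokine that also binds oxidised lipoprotein, had 13.2, 12.2 and 12.2 FPKM in the PS libraries and 49.2, 46.4 and 45.3 in the ULA libraries (log2FC 1.83 ± 0.07 (SE), limma adjusted p = 1.22e-08). The neutrophil chemokine Cxcl3, which has close paralogs, rose from 9.81 ± 1.62 to 65.9 ± 7.81 FPKM. Cxcl12, which attracts progenitor cells to injured heart, went the other way, with 63.8, 64.1 and 63.1 FPKM in the PS libraries and 9.3001, 9.03 and 8.78 in the ULA libraries (log2FC -2.69 ± 0.12 (SE), limma adjusted p = 3.67e-08), and Il15 and Csf1 fell from 26.9 ± 1.84 to 6.96 ± 1.17 and from 87.3 ± 2.03 to 54.1 ± 0.707 FPKM. Of 20 regulators and targets of NF-κB, 15 were higher and 1 was lower, by a median log2FC of 0.32. Sod2, mitochondrial superoxide dismutase, rose from 319.7 ± 2.88 to 672 ± 13.7 FPKM, Ikbke, a kinase of the innate response, from 13.3 ± 0.594 to 36.4 ± 1.73 FPKM, and Irak3 and Bcl3, which dampen it, from 11.9 ± 1.03 to 28.04 ± 0.486 and from 11.6 ± 0.356 to 31.01 ± 0.684 FPKM. Icam1 fell from 142 ± 1.88 to 119 ± 5.57 FPKM. Of 26 interferon response and antigen presentation genes, 22 were higher and 1 was lower. B2m, the light chain of MHC class I, had 359, 344 and 352 FPKM in the PS libraries and 576, 563 and 567 in the ULA libraries (log2FC 0.69 ± 0.03 (SE), limma adjusted p = 2.03e-08). The interferon-induced genes Oasl and Ifit3 were near 0 on PS and rose from 0.161 ± 0.0857 to 5.79 ± 0.756 and from 0.501 ± 0.123 to 6.73 ± 0.491 FPKM, and Ifit2 fell from 26.1 ± 1.12 to 16.4 ± 1.62 FPKM.

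Lysosomal and antioxidant genes also leaned upwards. Of 36 genes of lysosomes and autophagy, 26 were higher and 4 lower. Gpnmb, a glycoprotein of lysosome-rich cells, had 211, 205 and 218 FPKM in the PS libraries and 922, 853 and 847 in the ULA libraries (log2FC 2.04 ± 0.05 (SE), limma adjusted p = 6.42e-10). The cathepsin genes Ctsl and Ctsh rose from 286 ± 10.2 to 765 ± 4.32 and from 89.3 ± 1.51 to 186 ± 4.43 FPKM, and Lamp2, a lysosomal membrane protein, from 255 ± 1.11 to 530.3 ± 6.79 FPKM, whereas Lamp1 fell from 275 ± 7.4997 to 232 ± 5.95 FPKM. Of 34 genes of NRF2 and thiol defence, 19 were higher and 11 lower. The metallothionein gene Mt2A, which binds zinc and copper, had 136, 129 and 121 FPKM in the PS libraries and 1334, 1405 and 1383 in the ULA libraries. Its close paralog Mt1 rose from 10.98 ± 1.22 to 151 ± 10.3 FPKM. Hmox1, heme oxygenase 1, had 119, 112 and 113 FPKM in the PS libraries and 734, 656 and 723 in the ULA libraries (log2FC 2.60 ± 0.06 (SE), limma adjusted p = 9.26e-10), and Gpx3, a secreted glutathione peroxidase, rose from 103 ± 5.88 to 748 ± 22.6 FPKM. Tfrc, the transferrin receptor, and the peroxidase genes Gpx8 and Prdx3 fell by 1.23, 0.65 and 0.36 on the log2 scale.

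**Figure D5:**
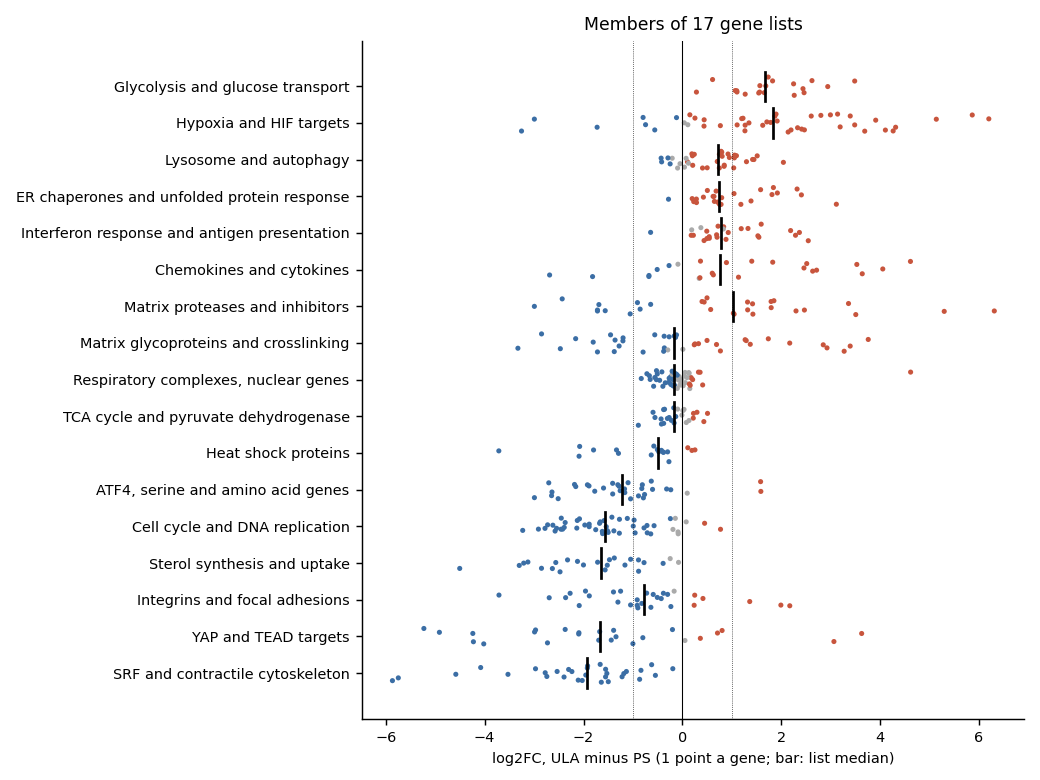
The log2FC between the ULA and PS groups (horizontal axis) of each member of 17 gene lists, 1 point a gene, red where higher, blue where lower and grey where the adjusted p was not passed. The black bar is the median of the list, which runs from -1.92 for the contractile list to 1.83 for the hypoxia list, and dotted lines mark a log2FC of 1 and -1.

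Ligands of the TGF-β family changed in both directions. Of 38 genes of this family and its regulators, 18 were lower and 17 higher, but 11 DEGs were lower and 5 higher. Bmp4 had 77.9, 77.3 and 77.7 FPKM in the PS libraries and 5.83, 6.36 and 5.46 in the ULA libraries (log2FC -3.52 ± 0.10 (SE), limma adjusted p = 2.48e-09), and Bmp6 had 142, 145 and 138 FPKM in the PS libraries and 16.2, 17.4 and 15.9 in the ULA libraries (log2FC -3.03 ± 0.09 (SE), limma adjusted p = 3.2e-09). Tgfb3 fell from 349 ± 1.13 to 56.3 ± 1.74 FPKM. Bmp2, in contrast, had 1.39, 1.49 and 2.69 FPKM in the PS libraries and 33.6, 29.9 and 31.4 in the ULA libraries (log2FC 3.54 ± 0.14 (SE), limma adjusted p = 1.81e-08). The coreceptor gene Tgfbr3 rose from 2.89 ± 0.122 to 18.1 ± 0.1297 FPKM. Smaller rises were seen in the receptor gene Tgfbr2 (0.46 in log2FC) and in the signal transducer gene Smad3 (0.23).

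Wnt and Notch genes had 14 of 28 members higher and 11 lower. This balance rested on genes of low level. With a minimum of 5 FPKM, 20 were tested, of which 9 were higher and 10 lower. Sfrp2, a secreted modulator of Wnt, had 5.44, 5.65 and 6.61 FPKM in the PS libraries and 62.8, 54.2 and 53.5 in the ULA libraries (log2FC 3.07 ± 0.08 (SE), limma adjusted p = 1.23e-09). Axin2 and Lef1, a target and a factor of canonical Wnt signalling, rose from 0.686 ± 0.127 to 5.94 ± 0.416 and from 0.712 ± 0.113 to 4.16 ± 0.339 FPKM, and Lrp5, a coreceptor, from 23.97 ± 0.737 to 66.1 ± 2.64 FPKM. The Notch ligand genes diverged. Jag1 had 27.7, 28.7 and 28.4 FPKM in the PS libraries and 5.55, 5.65 and 5.73 in the ULA libraries (log2FC -2.14 ± 0.06 (SE), limma adjusted p = 1.6e-09), and Dll1 had 0.0927, 0.111 and 0.0736 FPKM in the PS libraries and 4.12, 5.04 and 4.103 in the ULA libraries (log2FC 2.31 ± 0.09 (SE), limma adjusted p = 1.69e-08). The target gene Hes1 fell from 81.97 ± 5.47 to 20.8 ± 3.09 FPKM, while the receptor gene Notch4 rose from 0.141 ± 0.0674 to 11.5 ± 0.671 FPKM. Fzd4, a Wnt receptor, and Nkd2, an inhibitor of Wnt, fell from 8.704 ± 0.423 to 1.98 ± 0.178 and from 79.5 ± 2.91 to 16.1 ± 1.31 FPKM.

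Of 37 genes of growth factors and their receptors, 18 were lower and 11 higher. Nrg1, the neuregulin ligand that cardiomyocytes respond to, had 27.03, 27.1 and 26.8 FPKM in the PS libraries and 1.41, 1.44 and 1.43 in the ULA libraries (log2FC -3.53 ± 0.05 (SE), limma adjusted p = 7.78e-11). Hbegf, a ligand of the EGF receptor, fell from 51.1 ± 0.835 to 7.78 ± 0.367 FPKM, Nrp2, a coreceptor of VEGF-C, from 125 ± 0.287 to 28.6 ± 1.62 FPKM, and Igfbp2 from 82.3 ± 1.82 to 21.1 ± 0.256 FPKM. Hgf and Igf1, paracrine growth factors, rose from 2.54 ± 0.172 to 10.4 ± 1.15 FPKM (log2FC 1.68, limma adjusted p = 4.54e-07) and from 9.79 ± 0.721 to 24.9 ± 1.18 FPKM (log2FC 1.26, limma adjusted p = 8.65e-08). Fgf2, another paracrine factor, did not pass the test (2.71 ± 0.212 and 2.68 ± 0.523 FPKM, log2FC -0.02, limma adjusted p = 0.918). Igfbp4, a binding protein cut by a pregnancy-associated protease, rose from 25.5 ± 0.741 to 121 ± 8.16 FPKM.

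Ligands and receptors of the peptide systems that set vascular tone changed in both directions. Of 22 genes, 13 were higher and 7 lower. Edn1, given above, fell, whereas its receptor gene Ednra had 2.14, 1.99 and 2.17 FPKM in the PS libraries and 23.2, 22.7 and 21.6 in the ULA libraries (log2FC 2.92 ± 0.08 (SE), limma adjusted p = 2.16e-09). Agtr1a, the angiotensin II receptor, had 232, 231 and 229 FPKM in the PS libraries and 38.1, 36.1 and 35.9 in the ULA libraries (log2FC -2.62 ± 0.10 (SE), limma adjusted p = 1.32e-08), while the precursor and the converting enzyme of angiotensin, Agt and Ace, were near 0 on PS and rose from 0.709 ± 0.0682 to 7.42 ± 0.7097 and from 0.0353 ± 0.0322 to 2.301 ± 0.356 FPKM. Npr3, the clearance receptor of natriuretic peptides, had 222, 239.6 and 242 FPKM in the PS libraries and 1.49, 3.19 and 2.21 in the ULA libraries. Calcrl, the receptor of CGRP and adrenomedullin, rose from 3.03 ± 0.428 to 13.5 ± 0.811 FPKM, and Adm, adrenomedullin, fell from 89.3 ± 2.299 to 26.3 ± 0.736 FPKM.

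In the immediate early genes, which respond to stimuli and handling within minutes, a single ULA library stood apart. Of 33 genes, 13 were lower, 9 higher and 11 did not pass. In the second ULA library, 24 of the 33 were lowest of the 3 ULA libraries. The matching count over all genes tested is not given, so this count alone does not set that library apart. A comparison with other genes, by a stricter measure, is given under the other observations. Fos had 552, 549 and 547 FPKM in the PS libraries and 540.2, 160.1 and 592 in the ULA libraries, and Jun had 110.5, 105 and 106 FPKM in the PS libraries and 156, 54.4 and 185 in the ULA libraries. Without that library, 14 were lower and 11 higher, Jun rose (log2FC 0.66, limma adjusted p = 0.00152, against 0.12 and 0.799 with it), and Fos did not pass either way (adjusted p = 0.482 without it and 0.24 with it, from limma). The 7 members named next passed with and without it. Nr4a1, an orphan nuclear receptor gene, had 135, 130.5 and 131 FPKM in the PS libraries and 56.9, 53.6 and 54.8 in the ULA libraries (log2FC -1.25 ± 0.04 (SE), limma adjusted p = 5.13e-09), and the feedback inhibitors of growth factor signalling Spry1 and Spry2 fell from 9.21 ± 0.844 to 0.553 ± 0.146 and from 36.02 ± 1.07 to 12.3 ± 0.922 FPKM. Phlda1 fell from 122 ± 3.51 to 58.5 ± 1.76 FPKM. Ier3, Dusp5 and Klf10 rose by 1.41, 1.53 and 0.89 on the log2 scale.

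Markers of mesenchymal stromal cells, as which the CDCs are known, were expressed in both groups. All 12 had at least 1 FPKM in some library. They summed to 9354 to 9801 FPKM in the PS libraries and 5853 to 6375 in the ULA libraries, mostly Col1a1 and Vim, which fell. At the adjusted p, 6 of the 12 were higher (50.0%) and 4 lower (33.3%), against 38.4% and 30.5% of all genes tested. Thy1, a surface marker the study used, had 138, 139 and 134 FPKM in the PS libraries and 20.3, 22.3 and 20.1 in the ULA libraries (log2FC -2.66 ± 0.14 (SE), limma adjusted p = 1.01e-07), while Pdgfra had 17.3, 16.1 and 16.9 FPKM in the PS libraries and 72.1, 66.7 and 66.6 in the ULA libraries (log2FC 1.97 ± 0.05 (SE), limma adjusted p = 7e-10) and Eng (CD105) rose from 40.2 ± 1.01 to 61.2 ± 2.57 FPKM. Smooth muscle and pericyte markers summed to 4467 to 4548 FPKM in the PS libraries and 150.1 to 155 in the ULA libraries, mostly Acta2 and Tagln. Within that list Kcnj8 and Abcc9, channel genes of pericytes, rose from 5.02 ± 0.141 to 15.6 ± 1.14 and from 17.8 ± 0.494 to 35.1 ± 1.47 FPKM. Cardiomyocyte markers summed to 4.21 to 6.27 FPKM on PS and 0.891 to 1.72 on ULA, and 8 of 11 were under 1 FPKM in all 6 libraries. Endothelial markers summed to 11.02 to 12.8 FPKM on PS and 8.85 to 10.2 on ULA, mostly Egfl7 and Erg. Only 7 of the 11 listed were matched, and 4 of these were under 1 FPKM in all 6 libraries. Kdr was listed at 0 in all 6, and Tek and Cd34 were low but higher on ULA. Leukocyte markers summed to 20.9 to 23.2 FPKM in the PS libraries and 76.4 to 80.6 in the ULA libraries. Most of this rise was in Cd68, a lysosomal protein gene of macrophages (2.91, 2.76 and 3.43 FPKM in the PS libraries and 39.5, 39.9 and 39.9 in the ULA libraries), and Cd14 (17.1, 18.9 and 18.7 FPKM in the PS libraries and 37.5, 34.2 and 33.3 in the ULA libraries), and 8 of the 11 measured were under 1 FPKM in all 6 libraries. The part of these shifts in the inflammatory and lysosomal lists was not tested.

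Factors of the cardiac and progenitor state changed in both directions, with 10 of 26 higher (38.5%) and 12 lower (46.2%). The higher share was near that of all genes tested, of which 38.4% were higher and 30.5% lower. Kit, the receptor used to define cardiac progenitors, had 0.155, 0.221 and 0.154 FPKM in the PS libraries and 6.298, 6.23 and 7.099 in the ULA libraries (log2FC 2.68 ± 0.08 (SE), limma adjusted p = 4.06e-09). Sox9, a factor of cartilage and valve cells, had 32.7, 32.95 and 31.7 FPKM in the PS libraries and 6.11, 5.51 and 7.34 in the ULA libraries (log2FC -2.20 ± 0.08 (SE), limma adjusted p = 1.1e-08). Gata6 fell from 31.7 ± 0.382 to 12.7 ± 1.15 FPKM, Mef2a from 35.7 ± 1.23 to 22.95 ± 0.268 FPKM and Snai2 from 32.8 ± 1.93 to 15.4 ± 0.9795 FPKM, whereas Snai1 rose from 22.8 ± 1.51 to 79.2 ± 2.104 FPKM and Prrx1, a mesenchymal factor, from 184 ± 1.26 to 309 ± 2.79 FPKM. Of the other genes that the study measured by other means, Pou5f1, Sox2, Il1b and Cd34 were below the level needed for a test. Il1b had 0.0489, 0.166 and 0.0969 FPKM in the PS libraries and 1.01, 0.675 and 0.933 in the ULA libraries, and Cd34 had 0, 0.0329 and 0 against 1.28, 1.11 and 0.956. Pou5f1 was at most 0.130 FPKM in these 6 libraries, and Sox2 at most 0.0338.

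Some of the differences were larger or smaller in the OPC group, whose cells also formed spheroids. Its comparisons share the PS or ULA libraries with the one above, so each is given by its own values. Of the 15 largest rises, 5 were named for lying nearest to the PS level in the OPC group. Car12 had 0.453, 0.518 and 0.131 FPKM in the OPC libraries, which puts the OPC mean 4.6% of the way from PS to ULA on the log2 scale. Tmem255b had 0.696, 0.368 and 0.0671 FPKM (4.5%), Ndrg1 5.24, 5.43 and 4.13 FPKM (11.2%), Cox4i2 1.72, 2.39 and 1.41 FPKM (17.2%) and Angptl8 6.73, 6.602 and 4.47 FPKM (32.8%). Of the 15 largest falls, the 5 nearest to PS ran from Esm1, with 10.9, 8.07 and 15.6 FPKM (47.4%), over Arsi (55.0%), Npr3 (55.5%) and Vgll3 (57.5%) to Edn1 (62.5%). The ER chaperones also differed between the OPC and ULA groups. Of 26 genes, 25 had lower levels on OPC than on ULA and none had higher ones, against 21.7% lower and 32.2% higher over all genes tested. Hspa5 had 362, 359.6 and 375 FPKM in the OPC libraries (OPC vs ULA log2FC -2.01, limma adjusted p = 4.21e-08), Hsp90b1 had 309, 306 and 334 FPKM, and Creld2 had 21.3, 21.98 and 21.8 FPKM, all below the ULA libraries. The contractile and ATF4 lists were lower than on PS in the OPC group too, with 30 of 31 and 31 of 32 genes lower at the adjusted p against 23.9% of all genes tested. Notch4 had 0.172, 0.241 and 0.167 FPKM in the OPC libraries, near those of PS, and Igfbp3 had 22.2, 24.02 and 23.1 FPKM (OPC vs ULA log2FC -3.34, limma adjusted p = 2.61e-09).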

How the data were processed

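RNA-seq was carried out on 9 cultures of CDCs, 3 on each substrate. The reads were aligned to the rat genome build rn6 with HISAT2 2.1, per the labels and the study's methods. The values the authors deposited were read as FPKM, since they have the scale of FPKM, are not whole and do not sum to a fixed total. Both featureCounts, followed by size-factor software for differential expression (study's methods) and StringTie 1.3.0 (submitters' processing notes) are named, and the sources used here give neither which of them made these values nor whether strand was used.

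Genes of at least 1 FPKM in at least 3 of the 9 libraries were tested on log2(FPKM + 1) with limma 3.58.1 (R 4.3.3, moderated test with a trend, all 9 libraries in 1 fit, 6 residual degrees of freedom, Benjamini-Hochberg adjustment over all genes tested). In simulated data, the changed genes had a PS level of at least 5 FPKM, and noise was drawn independently for each gene. Of 67 genes changed by 0.75 on the log2 scale, 97% passed the adjusted p and 1.5% were DEGs. Of those changed by 1.5 or 3, 100% passed, as did 13 of 12313 unchanged genes, none of which was a DEG. Detection of genes at lower levels, or with as many genes changed as here, was not simulated. Alternatives were another pseudocount, no or a stricter filter on low values, upper-quartile and median-ratio rescaling, no trend, only the PS and ULA libraries, a replicate block, the unadjusted p, and each replicate left out.

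The comparison and the gene lists were chosen with earlier results of these data known. Of 1082 list symbols, 1023 were matched by symbol and 18 by gene identifier, and 909 of the matched were tested. Named were the 15 rises and 15 falls with the largest |log2FC| (a mean of at least 5 FPKM and no overlap between libraries, with accession-like names left out), the 8 rises and 8 falls largest in FPKM, up to 4 members of each list in its main direction and 3 in the other by adjusted p, genes the study measured by other means, and 5 genes of each direction nearest to PS in the OPC group. Some genes that met this rule are not reported here. A further 43 genes, most of them central members of their pathways, were named after their values were seen, as were the genes whose promoters are shown. Promoters are from RefSeq GRCr8, the first start listed for each gene, and gene positions are as deposited, in rn6. Some named genes overlap another gene (Angptl8 and Dock6, Tagln and Sidt2, Actn4 and Capn12, Timp1 and Syn1, Cxcl16 and Zmynd15, Ddit3 and Mars, Mt1 and Dclre1c, Fgf2 and Nudt6, Jam2 and Gabpa, Spry2 and Mycbp2, Cox6a1 and Gatc, Idh2 and Zfp710, Lox and Zfp474, Fam162a and Ccdc58), so their reads may not be told apart, and the same holds for close paralogs such as the metallothionein, Cxcl and actin genes.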

Additional observations from a re-analysis of the deposited data

How the results depend on the processing

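The counts over all genes stayed within 1.5 times their values under each alternative run. The number of DEGs was 2604 with a pseudocount of 0.1, 1982 with no filter on low values (19919 genes), 1523 with a minimum of 5 FPKM (9298 genes), 1995 with upper-quartile and 1980 with median-ratio rescaling, 1973 with no trend, 1978 from only the PS and ULA libraries and 1985 at an unadjusted p. With the stricter filter, 457 of the 1978 DEGs were not called, mainly because fewer genes were tested. Median-ratio rescaling moved the median log2FC of all genes from 0.06 to -0.001 and turned the balance from 1053 higher and 925 lower to 952 and 1028. Leaving out 1 replicate gave 1973 to 2018 DEGs and 8099 to 8256 genes past the adjusted p, against 8627. Deviations of the libraries from their group means were correlated between groups. The correlations ran from -0.039 to 0.054 for same-numbered libraries and from -0.054 to 0.043 for other pairs. No shared replicate effect was seen, but with 3 libraries a group this cannot tell whether the cultures were paired. With the replicate block there were 1976 DEGs, 1973 of them shared with the fit without it. Of the 239 genes that met the rule for naming, Hsp90ab1 lost its call with median-ratio rescaling (log2FC 0.05, adjusted p = 0.182 from limma), and the other 3577 of 3578 pairs of gene and alternative kept direction and side of the threshold. Among 43 other genes, 25 pairs lost the call (Synpo2, Loxl2, Jund and Yap1) and 5 gained it (Insig1 and Jun). Among the larger counts of list members, the mitochondrial genome had 6 lower with no filter on low values against 11, and the nuclear respiratory genes had 4 higher with median-ratio rescaling and 5 without ULA replicate 2 against 8. Of 35 lists, 3 changed the sign of their balance or median. The Wnt and Notch list went from 14 higher and 11 lower to 9 and 10 with the stricter filter. The cardiac factors went from 10 and 12 to 9 and 8 with that filter and to 10 and 9 without PS replicate 1. The median of the cell cycle inhibitors went from 0.01 to -0.05 with median-ratio rescaling and to between -0.03 and -0.01 without PS replicate 2, ULA replicate 1 or ULA replicate 3. Absolute depth is unknown, so values near 0 cannot be told from a few reads.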

Other observations

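A single ULA library was low for immediate early genes. In ULA replicate 2, 6 of the 33 such genes tested (Fosb, Fos, Jun, Dusp1, Klf2 and Klf4) were under 50% of the mean of the other ULA libraries, against 23 of 8661 genes (0.27%) of at least 5 FPKM in the ULA group. Klf2, a zinc finger factor of quiescent cells, had 108, 107 and 101 FPKM in the PS libraries and 52.9, 21.03 and 60.7 in the ULA libraries, and Dusp1, a phosphatase that ends MAP kinase signals, had 346, 335 and 324 FPKM in the PS libraries and 318, 114 and 337 in the ULA libraries. Without that library Klf2 remained lower (log2FC -0.89, adjusted p = 0.000251 from limma) and Fosb passed the test (log2FC -0.43, adjusted p = 0.0248 from limma, against -1.08 and 0.0552 with it).

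The genes of both patterns were chosen after their values were seen. A few genes varied widely between libraries of a group. Selenow, a selenoprotein gene, had 6.38, 119 and 126 FPKM in the PS libraries and 105, 201 and 6.02 in the ULA libraries, and 105, 5.29 and 88.98 FPKM in the OPC libraries. In each group 1 library was thus near 6 FPKM or below and the others at 88.98 FPKM or above. Rps19, a ribosomal protein gene, had 131, 86.8 and 101 FPKM in the PS libraries and 85.4, 9.11 and 22.3 in the ULA libraries. The cause was not tested.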
